A study of Mus musculus with 6 samples.

Results

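The genes described here are those of the mitochondrial ribosome and of protein import into mitochondria, with a set of factors that copy, transcribe and translate mitochondrial DNA. They were chosen by symbol alone: every listed gene named Mrpl or Mrps with a number, every gene named Timm or Tomm with a number, and 11 named factors. This rule took 109 of the 14016 rows of the authors' table, made up of 48 genes of the large ribosomal subunit, 29 of the small subunit, 22 import genes and 10 of the 11 named DNA or translation factors. The factor not taken was Twnk, which encodes the helicase that unwinds mitochondrial DNA and which the table lists under its older symbol Peo1.

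RNA sequencing was done on quadriceps muscle of mice 7 days post-injury (dpi), after a volumetric muscle loss injury without an implant. This was the study's control injury, in which by its methods the gap received sterile saline. There were 3 WT samples (C57BL/6, titled B6) and 3 samples of the GATA-1 mutant, which the study calls ΔdblGATA, an eosinophil-deficient strain that lacks a paired GATA site in the promoter of Gata1 in every cell of the animal. The study's methods describe the WT animals as young adult females and do not give the age of the mutants separately. PolyA RNA with an ERCC spike-in was sequenced from whole tissue, so that fewer cells of a type and less RNA per cell cannot be told apart. The values used are the authors' mean log2 CPM of each gene over all 6 samples, both genotypes together; values per sample and a difference between WT and ΔdblGATA muscle were not analysed here, and these means carry no replicate error. Defining genes of skeletal muscle fibres were all present, with 8 of 8 markers at means between 10.6 and 14.7 log2 CPM. Of 10 eosinophil markers, 1 was listed (Ear2, mean 0.13 log2 CPM), and of 4 neutrophil markers, 3 were listed, at mean levels of -0.50 to 1.76 log2 CPM. Macrophage (4 of 5 markers listed), fibroblast (4 of 4) and endothelial (4 of 4) genes were present as well, so the levels below are those of a mixed, healing tissue. These markers and the gene lists below were looked up by symbol as written. A gene listed under another symbol, as Twnk was, would count as not listed.

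Mitochondria make a small number of respiratory chain proteins on their own ribosomes, which are built from RNA encoded in mitochondrial DNA and from proteins encoded in the nucleus. Those proteins, like almost all others of the organelle, are made in the cytosol and brought in through the TOM complex of the outer membrane and the TIM complexes of the inner membrane, with small TIM chaperones escorting hydrophobic cargo between the membranes. Muscle fibres are rich in mitochondria, and both machines are needed wherever mitochondria are built or renewed.

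The start regions of 4 members are shown here because each carries 2 of the 3 short motifs searched for, which are those bound by regulators known for mitochondrial and housekeeping genes. The motifs were the NRF1 core GCGCATGC, the ETS core CCGGAAG, which GABP also binds, and the YY1 core AAGATGGC, each looked for on both strands in the 250 bases before and the 50 bases after a gene's start. Each sequence runs 5′ to 3′ along the gene's own strand, from RefSeq on GRCm38.p6, and capitals mark the motifs, which appear in reversed and complemented letters where they lie on the other strand. The Mrpl33 region is chr5:31613701-31614000 on the + strand, that of Mrps18a is chr17:46110754-46111053 on the + strand, that of Polrmt is chr10:79746532-79746831 on the - strand, and that of Mrpl32 is chr13:14612988-14613287 on the - strand.
Mrpl33: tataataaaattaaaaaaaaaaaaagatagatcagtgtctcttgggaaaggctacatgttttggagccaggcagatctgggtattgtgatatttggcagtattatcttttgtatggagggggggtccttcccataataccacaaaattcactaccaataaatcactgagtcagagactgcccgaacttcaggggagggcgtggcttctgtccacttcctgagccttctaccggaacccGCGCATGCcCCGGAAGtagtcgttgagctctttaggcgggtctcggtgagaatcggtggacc
Mrps18a: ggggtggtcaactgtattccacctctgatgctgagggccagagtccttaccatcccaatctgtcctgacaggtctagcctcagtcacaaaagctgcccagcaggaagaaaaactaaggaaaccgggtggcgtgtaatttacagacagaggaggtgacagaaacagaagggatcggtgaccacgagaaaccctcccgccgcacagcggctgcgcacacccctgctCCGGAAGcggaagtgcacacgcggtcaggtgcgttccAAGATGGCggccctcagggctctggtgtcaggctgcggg
Polrmt: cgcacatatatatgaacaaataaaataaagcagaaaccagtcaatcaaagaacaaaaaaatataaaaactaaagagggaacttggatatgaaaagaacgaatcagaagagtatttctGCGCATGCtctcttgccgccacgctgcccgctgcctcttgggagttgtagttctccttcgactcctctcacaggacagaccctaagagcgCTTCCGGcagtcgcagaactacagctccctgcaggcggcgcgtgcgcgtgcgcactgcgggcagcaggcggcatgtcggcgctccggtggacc
Mrpl32: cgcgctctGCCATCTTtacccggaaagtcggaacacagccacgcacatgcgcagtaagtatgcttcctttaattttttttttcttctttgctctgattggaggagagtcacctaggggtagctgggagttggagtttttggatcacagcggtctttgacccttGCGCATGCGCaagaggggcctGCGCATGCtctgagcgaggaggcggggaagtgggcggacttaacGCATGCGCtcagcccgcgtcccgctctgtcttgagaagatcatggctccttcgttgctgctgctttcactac

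In Mrpl33, the large-subunit gene with the highest level per length, the NRF1 letters lay at positions -12 to -5 and the ETS letters at -3 to 4, where -1 is the last base before the start and 1 is the first base transcribed. In Mrps18a, the ETS letters lay at -26 to -20 and the YY1 letters at 12 to 19. In Polrmt, which encodes the RNA polymerase of mitochondria, NRF1 letters lay at -133 to -126 and ETS letters at -43 to -37. Mrpl32 held NRF1 letters at 4 places between -87 and -15, of which 2 overlap each other, and YY1 letters at -242 to -235. A match of letters is a description of the sequence and does not show that a factor was bound.

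The 109 genes were, as a set, well above the middle of the table but far below the machines they serve or resemble. Their median mean level was 5.29 log2 CPM against 4.03 log2 CPM for all listed genes, and 102 of the 109 lay between 4 and 7 log2 CPM. At equal copy number a longer transcript gives more reads. Across these genes, though, mean level and transcript length were nearly unrelated. The Spearman correlation was 0.0583 over the 13937 genes with a length and 0.127 over the 109. Levels of different genes were compared per length, as the mean log2 CPM less the log2 of the transcript length in kb. A difference of 1 on this scale is a factor of 2. With level and length nearly unrelated, the order on this scale depends in part on how short the annotated transcripts are. Mrpl33 and Mrps21, the highest per length of the large and the small subunit, have transcripts of 478 and 488 nt. On this scale the median level per length was 4.48 for the 109 genes and 2.28 for all genes with a known length, a difference of 2.20, and 103 of the 109 (94.5%) were above the median of all genes. Per kb of coding sequence, 106 of 109 were above it.

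Levels per length of other gene sets gave these values a frame. The median level per length was 7.67 for 81 nuclear-encoded subunits of oxidative phosphorylation (OXPHOS), which share the organelle, and 7.89 for 85 proteins of the cytosolic ribosome. These medians were 3.20 and 3.41 higher than that of the 109 genes on the log2 scale. The 37 proteasome subunits, another large complex found in every cell, had a median level per length of 6.05. The mitochondrial ribosome translates the mRNAs of 13 mitochondrially encoded genes. These genes ran from 10.65 for mt-Atp8 to 14.41 for mt-Co1 in level per length, with a median of 12.69. The difference in median level per length between these 13 genes and the 109 genes was 8.21. Mitochondrial DNA is present in many copies per cell, and the values hold for polyA-selected libraries.

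**Figure D1:**
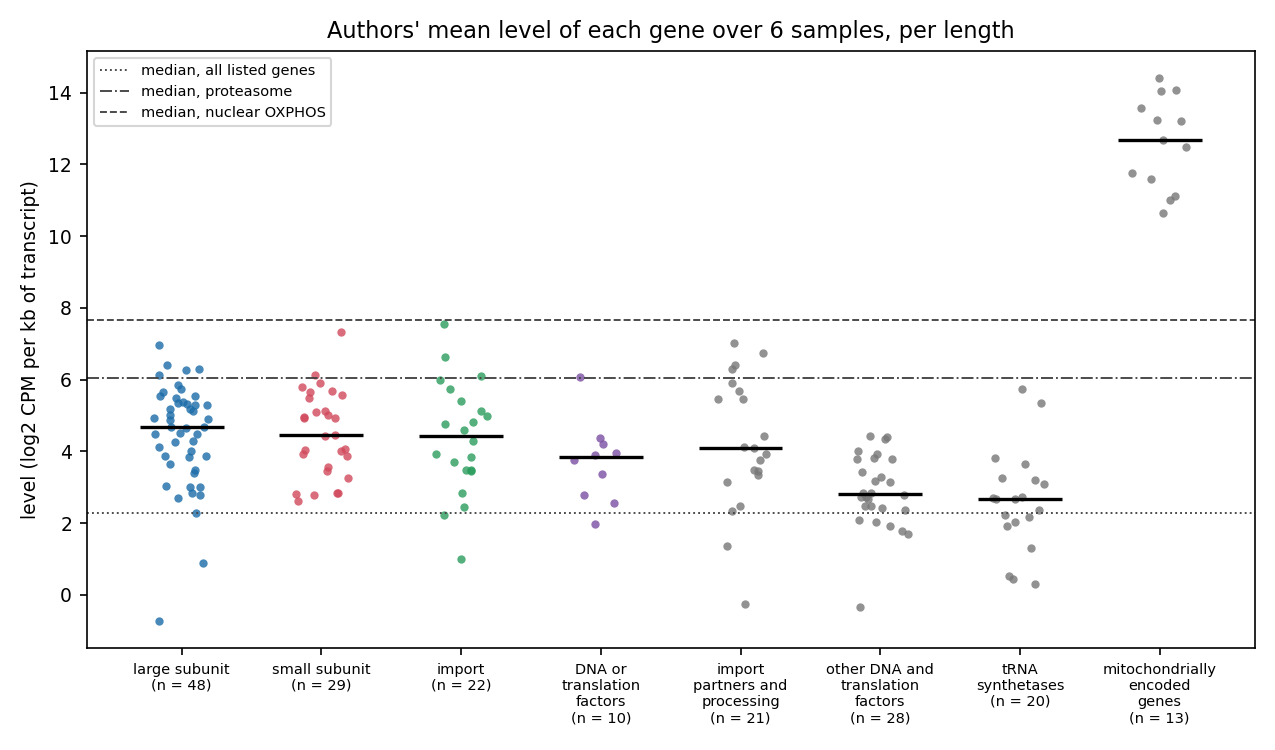
Level per length (mean log2 CPM over the 6 samples less log2 transcript length in kb, vertical axis) of each gene, by class; each point is 1 gene, black bars are class medians and the horizontal lines are medians of other gene sets. The 4 classes have medians between 3.84 and 4.68, above the line for all listed genes at 2.28 and below the line for proteasome subunits at 6.05, and the mitochondrially encoded genes stand apart at 10.65 and above.

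Both subunits of the mitochondrial ribosome had nearly the same median. The median level per length was 4.68 over the 48 large-subunit genes (SD over genes 1.44) and 4.46 over the 29 small-subunit genes (SD 1.20), a difference of 0.22 that is small beside the spread of genes within either class. On the scale of mean log2 CPM the medians of the large and the small subunit were both 5.17. Symbols do not follow position in full: the proteins of Mrps30 and Mrps18a are known to sit in the large subunit, and that of Mrps36 is now known as a component of the 2-oxoglutarate dehydrogenase complex. With Mrps30 and Mrps18a moved to the large subunit and Mrps36 left out, the median level per length was 4.68 over 50 large-subunit genes and 4.44 over 26 small-subunit genes. Ribosomal proteins with other kinds of symbol were not added to either subunit.

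Within the large subunit, the highest levels per length belonged to Mrpl33 (6.98), Mrpl53 (6.41) and Mrpl12 (6.29). Mrpl12 encodes the stalk protein that recruits translation factors to the ribosome, and Mrpl10, whose protein anchors that stalk, had a level per length of 4.52. Mrpl45, whose protein sits by the tunnel exit where the new chain meets the inner membrane, had a level per length of 4.28. The lowest were Mrpl19 (2.28), Mrpl32 (0.88) and Mrpl42 (-0.72). Mrpl42 stood apart from the rest of its complex, with a mean of -1.31 log2 CPM and the 13.4th percentile of all genes per length, and it was the only member with a mean below 0 log2 CPM. Of all listed genes, 1198 (8.55%) had a mean below 0 log2 CPM. The authors' filter asked for over 1 CPM in 3 or more samples, and if it ran over these 6 samples alone, the mean of Mrpl42 would put its 3 lowest samples at an average below -2.62 log2 CPM, apart from the effect of normalization. Whether the filter took in other samples is not given in the sources used here, so the mean of Mrpl42 cannot be read as a low level in every sample. Without Mrpl42 the large subunit had a median level per length of 4.69 and an SD of 1.24.

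Mrpl32 and Mrpl23 were the next lowest of the large subunit in mean level, at 2.47 and 3.03 log2 CPM. Mrpl32 encodes a protein that is cut by the m-AAA protease before it joins the ribosome. Its annotated transcript of 3013 nt holds a coding part of 561 nt and per kb of coding sequence its level was 3.30, above only that of Mrpl42 in the large subunit. Mrpl51 shows the opposite case. It had a level per length of 4.87 by its 3427 nt transcript and 8.02 by its 384 nt coding part, the highest of the large subunit on that second scale.

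The small subunit was the most even of the classes by mean level, with all 29 genes between 4.08 and 6.30 log2 CPM (SD 0.61). Per length the top genes were Mrps21 (7.33), Mrps34 (6.14) and Mrps36 (5.92) and the lowest were Mrps17 (2.82), Mrps26 (2.78) and Mrps35 (2.61). All 29 were above the median of all genes on this scale. Mrps12, which encodes a protein of the decoding centre, had a level per length of 4.96. The low end of the small subunit was made of long annotated transcripts: those of Mrps17, Mrps26 and Mrps35 are 5061, 4278 and 4162 nt long. Per kb of coding sequence the level of Mrps17 was 6.63, that of Mrps26 5.62 and that of Mrps35 4.72.

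**Figure D2:**
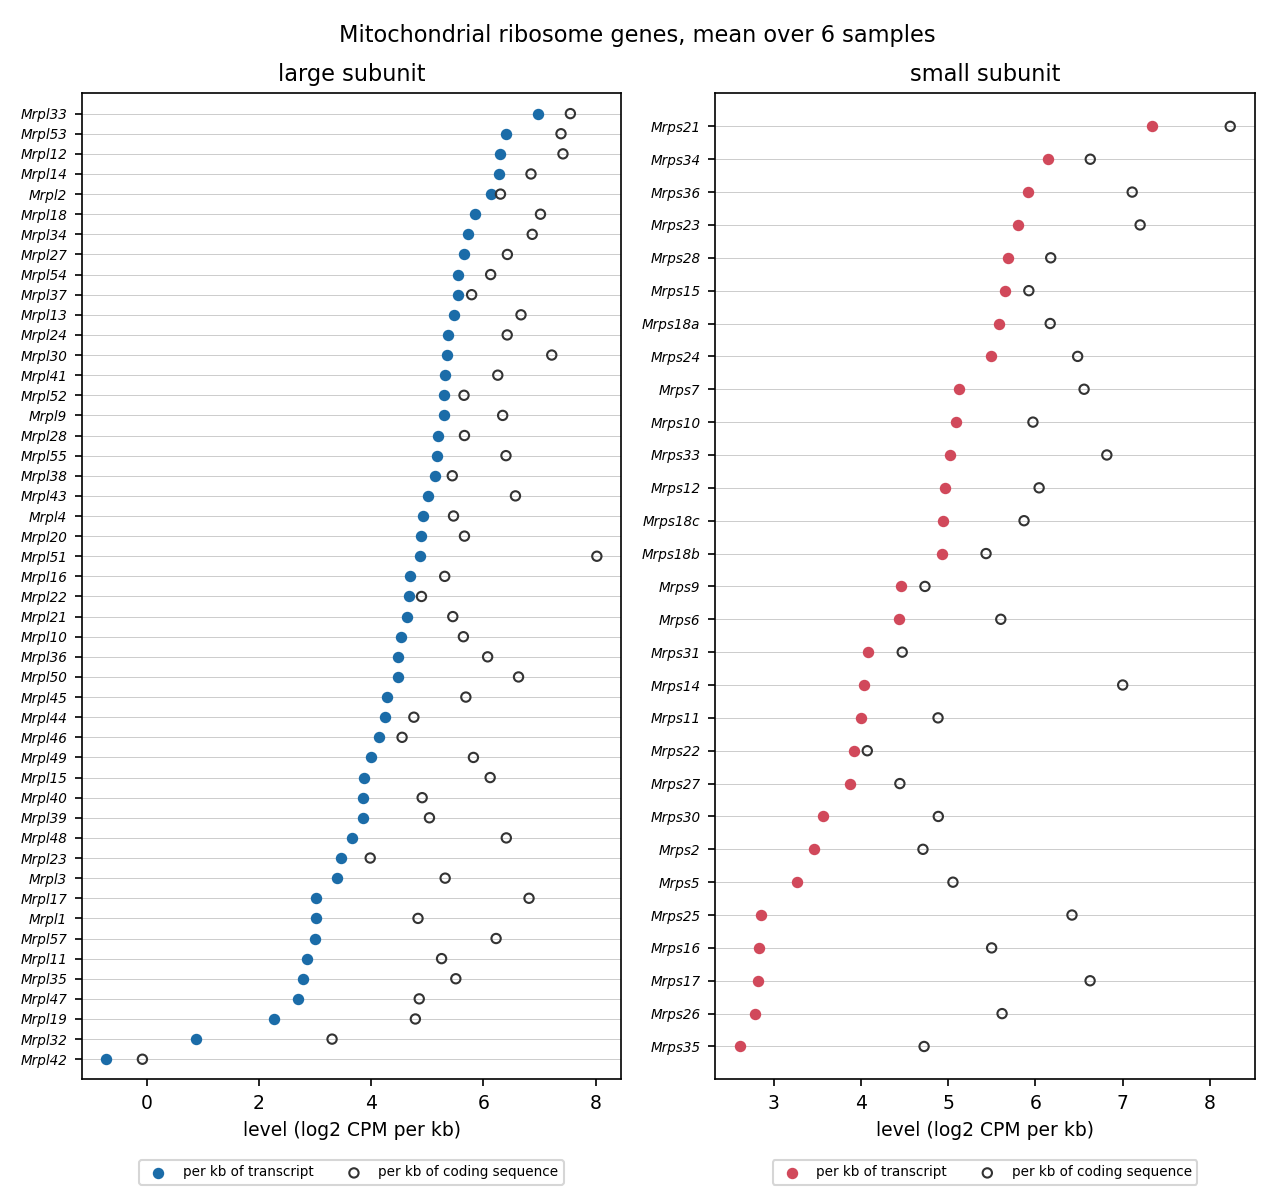
Level of each mitochondrial ribosome gene (mean over the 6 samples, horizontal axis, log2 CPM per kb), ordered within the large subunit (left) and the small subunit (right); filled points are scaled by transcript length and open points by coding length. Mrpl42 lies at -0.72 per kb of transcript, apart from the next gene Mrpl32 at 0.88, and genes with long untranslated parts such as Mrpl51 and Mrps17 have widely separated points.

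The import genes held the highest single member and some of the lowest. Timm23, which encodes the channel of the presequence translocase in the inner membrane, had a mean of 7.79 log2 CPM and a level per length of 7.56, at the 98.0th percentile of all genes. The class median was 4.44 per length, with an SD over the 22 genes of 1.55.

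In the TOM complex, the gene of the pore, Tomm40, had a level per length of 4.81. Of the receptors, Tomm22 stood at 5.12, Tomm20 at 4.28 and Tomm70a at 3.70 in level per length. Of the small TOM proteins that stabilise the pore, Tomm5 had a level per length of 6.09 and Tomm7 of 4.76, with Tomm6 between them. Per kb of coding sequence Tomm5, Tomm6 and Tomm7 lay closer together, at 7.33, 7.75 and 7.53. Tomm34, which encodes a cytosolic cochaperone rather than a part of the pore, had a level per length of 2.84.

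In the inner membrane, Timm50, the receptor that takes presequences from the TOM complex, had a level per length of 5.00, and Timm44, which tethers the import motor, 5.40. Timm21, which links the presequence translocase to the TOM complex and the respiratory chain, was among the lowest of the class with a level per length of 2.23. Timm22, the channel for carrier proteins, had a level per length of 3.49. The small TIM chaperones ranged widely in level per length, from 6.62 for Timm8b and 5.73 for Timm13 through 4.60 for Timm10 to 1.01 for Timm9. Timm9 and Timm10 encode partners in 1 chaperone ring. Their mean levels were 2.37 and 4.07 log2 CPM, and the coding-length scale left Timm9 below Timm10 too, at 4.28 against 5.96.

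Of the factors, Tufm was the highest, with a level per length of 6.08 at the 94.4th percentile of all genes. It encodes the mitochondrial EF-Tu, which brings tRNAs to the ribosome. Its exchange factor Tsfm had a level per length of 3.95, the translocase factor Gfm1 4.36 and the ribosome recycling factor Gfm2 3.91. The initiation factors stood at 3.77 for Mtif2 and 1.96 for Mtif3 in level per length. Lrpprc, whose protein keeps mitochondrial mRNAs stable, had a level per length of 4.20.

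The genes for the upkeep and transcription of mitochondrial DNA were lower than Tufm. Tfam, whose protein packages the DNA and acts at its promoters, had a level per length of 3.36, while Polrmt stood at 2.78 and Polg, the DNA polymerase gene, at 2.55. Under its older symbol, the gene of the helicase Twinkle had a level per length of 2.61 (mean 4.41 log2 CPM). These 4 genes thus lay between 2.55 and 3.36 per length. Tfam was set apart on the coding scale, with a level of 5.87 per coding kb against 2.83 for Polrmt and 3.66 for Polg.

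**Figure D3:**
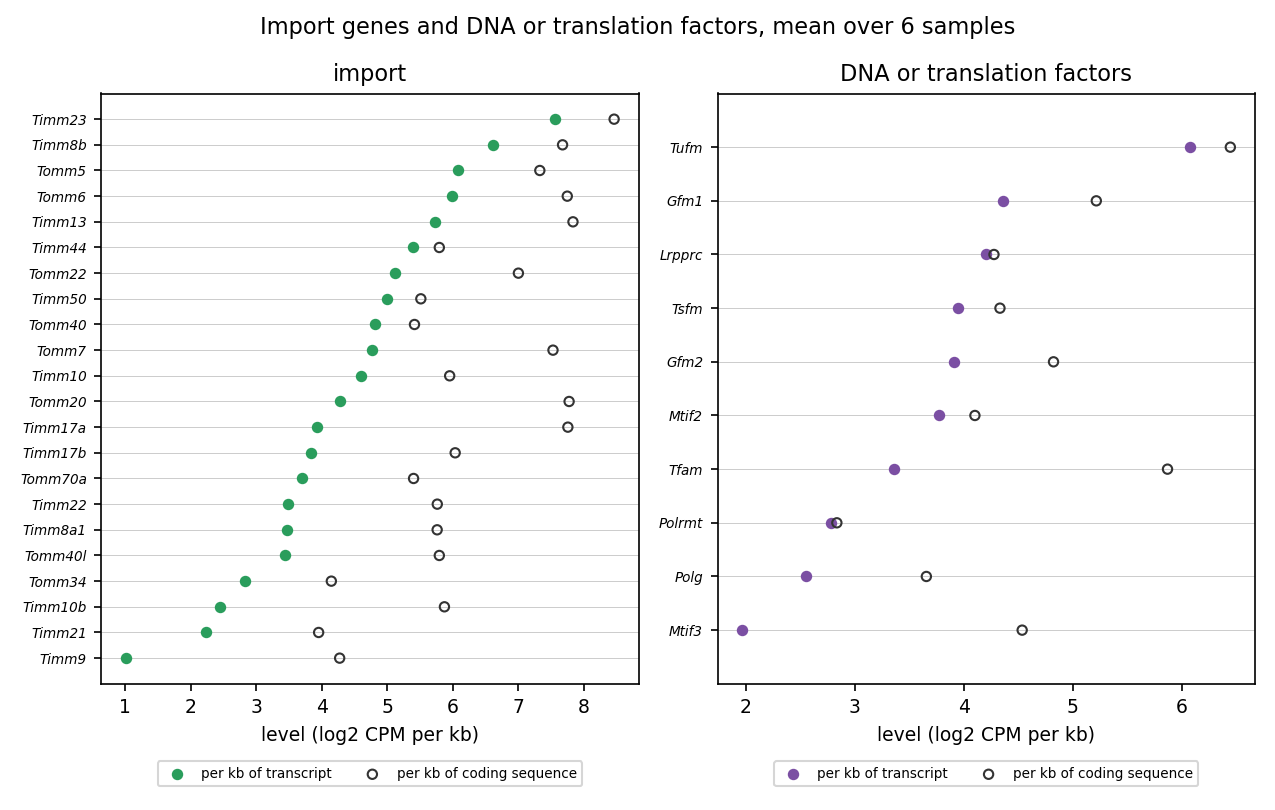
Level of each import gene (left) and each DNA or translation factor (right), as the mean over the 6 samples in log2 CPM per kb (horizontal axis); filled points are scaled by transcript length and open points by coding length. Timm23 at 7.56 and Tufm at 6.08 lead their classes per kb of transcript, and Timm9 at 1.01 and Mtif3 at 1.96 are lowest.

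Other genes of the same pathways, taken from fixed lists, spanned a similar or lower range. All 21 listed partners and processing enzymes of import were present, with a median level per length of 4.10. Hspa9, the mitochondrial Hsp70 that drives the import motor, was the highest at a level per length of 7.02. Hspe1, the cochaperonin, followed at 6.75, and Dnajc15, a J protein of the motor, was the lowest at -0.27. Of 29 further DNA and translation factors, 28 were listed, with a median level per length of 2.81, which is 1.03 below the median of the 10 named factors. Tfb2m, the transcription factor that works with Polrmt, reached 4.42. The list of 20 tRNA synthetases had a median level per length of 2.68, and 12 of them were above the median of all genes. This list includes Qars, whose enzyme works in the cytosol, and the 19 others had a median of 2.67 with 11 above the median of all genes. Kars (5.74) and Gars (5.36 per length), each of which makes a cytosolic enzyme as well, led that list, and Mars2 was lowest at 0.31. The median level per length of the 109 genes was 1.81 above that of these 19, which serve the same ribosome.

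Paralogous members gave a comparison between genes of like function. The differences on the 3 scales take no account of sequence shared with other genes, which is described below. Timm8b was 3.15 above Timm8a1 in level per length, and it was above by 1.92 on the coding scale and by 1.69 without scaling, so that the order did not hang on length. Gfm1 was above Gfm2 by 0.46 per length, 0.39 per coding kb and 0.34 without scaling. Mrps18a was above Mrps18b by 0.65 and above Mrps18c by 0.65 per length, and above both on the other scales too. The presequence channel partners Timm17a and Timm17b differed by 0.10 in level per length and by 1.72 per coding kb, with annotated transcripts of 7280 nt for Timm17a and 2381 nt for Timm17b. For Tomm40 and Tomm40l the order turned with the scale, with a difference of 1.37 per length, -0.38 per coding kb and -0.15 without scaling. It turned also for Mtif2 and Mtif3, with a difference of 1.81 per length and -0.43 per coding kb. Timm10 was 2.15 above Timm10b per length, but the difference was 0.08 per coding kb and -0.10 without scaling. Mrps18b and Mrps18c lay within 0.01 of each other per length, with a difference of -0.44 per coding kb and 0.39 without scaling.

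Some of the members share sequence with pseudogenes or other genes, and the reads of such genes can be assigned to more than 1 gene. At 5% of the sequence words described next or more, 28 members had a pseudogene partner and 26 a protein-coding partner. Shared sequence was counted for the members alone. Whether these counts are higher than those of other listed genes is therefore not known. Of the 109 genes, 80 shared at least 1 31-base word of their longest transcript with a transcript of another gene on either strand, 44 shared over 10% of their words and 10 shared over 50%. The median share was 6.54%. Among the 10 were the first gene per length of the import class, the first of the factors and the second of the large subunit: Timm23 shared 92.7% of its words, chiefly with Gm10273, Tufm shared 72.0% with the pseudogene Gm9755, and Mrpl53 shared 100% with Gm42688. None of these 3 partners was listed in the authors' table. Mrps34 shared 55.6% of its words, mainly with its overlapping neighbour Mapk8ip3, which was listed at a mean of 5.34 log2 CPM against 6.02 log2 CPM for Mrps34. Levels of these genes are therefore uncertain. The same holds for several of the paralogues compared above. Timm8a1 shared 41.8% of its words, all with the pseudogene Gm9797 or nearly so. The shares were 64.35% for Mrps18b and 38.1% for Mrps18c, against 0% for Mrps18a. Tomm40l shared 66.7% and Mtif3 28.5%. With members sharing over 10% of words left out, only the difference between Gfm1 and Gfm2 could still be taken, at 0.46 per length.

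Mrpl23 was the clearest case of a pair in the table. It shared 67.6% of its words with its processed pseudogene Mrpl23-ps1. The pseudogene was listed with a mean of 5.77 log2 CPM and Mrpl23 with 3.03 log2 CPM. Mrpl23-ps1 was the only pseudogene that was both listed and a partner of a member at 5% of its words or more. Mrpl42 shared 28.6% of its words with the pseudogene Gm6419, which was not listed. What shared words contributed to either level was not tested. Over all 109 genes the mean level in log2 CPM and the share of words in other genes had a Spearman correlation across genes of 0.0676, a description over genes of the same libraries.

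**Figure D4:**
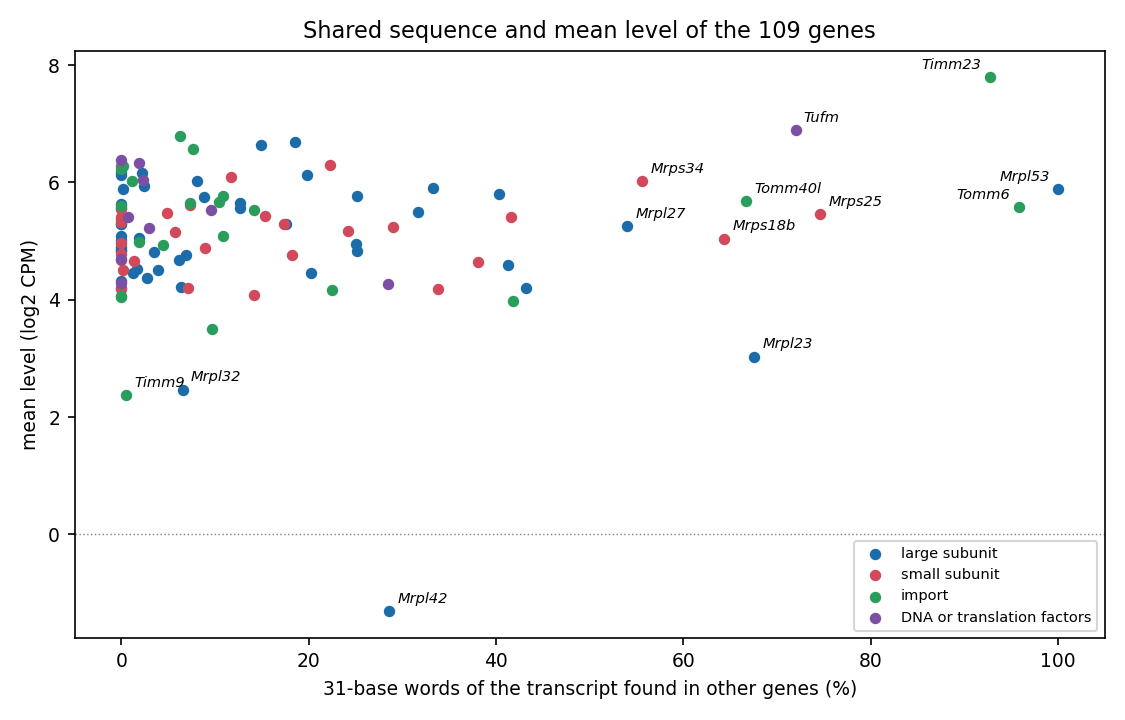
Mean level over the 6 samples (log2 CPM, vertical axis) against the share of its 31-base words that other genes hold as well (horizontal axis, percent) for the 109 genes, coloured by class, with genes over 50% or at the lowest levels named. Timm23 and Tufm are high and share 92.7% and 72.0% of their words, while Mrpl32 and Timm9 are low and share 6.54% and 0.51%.

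The members lay on 20 chromosomes, at most 12 on one of them (chromosome 11), with Timm17b and Timm8a1 on the X chromosome. Some had a close neighbour that starts in the opposite direction. Of the 109 genes, 24 (22.0%) had a protein-coding gene on the other strand whose start faced away within 1000 nt, against 1283 of 13693 listed protein-coding genes (9.37%), and 21 of the 24 were within 200 nt. The other 85 members had none by this rule. It took the outermost annotated end of each gene as its start, so pairs whose ends overlap were not counted. Mrps11 and Mrpl46 are among these 85, although their RefSeq starts lie close together on chromosome 7 and face away from each other. The counts are therefore lower limits. By class, members with a counted neighbour were 12 of 48 large-subunit genes, 6 of 29 small-subunit genes, 5 of 22 import genes and 1 of 10 factors. The share was 22.2% of 81 nuclear OXPHOS genes, 16.2% of 37 proteasome genes and 11.8% of 85 cytosolic ribosomal protein genes. Some of these neighbours also serve mitochondria. Timm8b starts 98 nt from Sdhd, a subunit of succinate dehydrogenase, Mrps12 starts 172 nt from Sars2, the mitochondrial seryl-tRNA synthetase, and Mrps27 starts 81 nt from Ptcd2, which acts on mitochondrial RNA.

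Of the 23 neighbours that were listed, 16 had a lower mean log2 CPM than the member, and 7 pairs lay within 1 log2 CPM. The same counts were not made for pairs of other listed genes. By mean log2 CPM, 103 of the 109 members were above the median of all listed genes. A lower neighbour is therefore no particular trait of these pairs. Gfm2 and Nsa2, a gene of cytosolic ribosome assembly, were at means of 6.05 and 6.19 log2 CPM, and Mrps27 and Ptcd2 at 4.76 and 4.57 log2 CPM. Mrpl32 was at 2.47 log2 CPM beside its neighbour Psma2, a proteasome subunit, at 6.38 log2 CPM. Mrpl49 was at 4.82 log2 CPM beside Fau, which encodes a cytosolic ribosomal protein fused to a ubiquitin-like one, at 7.58 log2 CPM. These values are not scaled by length, so they describe how many reads each gene took and not copies per cell.

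Start regions were found for 96 of the 109 genes, 5 of them with more than 1 start. Of these 96, 52 (54.2%) held at least 1 of the 3 motifs, against 26.3% of 10365 listed genes and 14.9% of all 27025 genes of the RefSeq promoter table. The ETS core was in 38 members (39.6%), against 18.5% of listed genes and 9.93% of all genes of that table. Its places centred close before the start, with a median first base of -16, and in 35 of the 38 members the nearest place was within 100 bases of the start. Positions were counted for the members alone and within the short stretch searched. Whether ETS places lie as close to the start in other listed genes is therefore not known. The NRF1 core was in 10 members (10.4%, against 5.68% of listed and 3.05% of all genes). By class these were 7 of 42 large-subunit genes, 1 of 26 small-subunit genes, 1 of 19 import genes and 1 of 9 factors. The YY1 core was in 13 members (13.5%, against 4.87% of listed and 3.19% of all genes).

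The YY1 letters lay mostly after the start. Of their 13 places, 9 began after it, and with only the 250 bases before the start searched, 4.17% of members held them, against 2.25% of listed genes and 1.83% of all genes of the table. With that shorter stretch the ETS share of members was 28.1%, against 14.5% of listed genes and 7.83% of all genes of the table. The YY1 core was in Mrpl42, at positions 28 to 35, and in Timm50 alone of the import genes. The YY1 letters contain ATG, and whether the places after the start are also starts of translation was not examined. In no member did ETS and YY1 letters overlap. Of the 96 members, 9 held motifs of 2 kinds (Mrpl17, Mrpl22, Mrpl32, Mrpl33, Mrps12, Mrps18a, Mrps18b, Mrps27 and Polrmt) and 0 held all 3.

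These shares were not particular to the members. Of 64 cytosolic ribosomal protein genes, 54.7% held at least 1 of the 3 motifs and 39.1% held the ETS core, shares within 1 percentage point of those of the members. At least 1 motif was in 45.3% of 64 nuclear OXPHOS genes and in 41.9% of 31 proteasome genes, and the ETS core was in 16 of the OXPHOS genes and in 32.3% of the proteasome genes. The YY1 core was in 14.1% of the OXPHOS genes, 10.9% of the cytosolic ribosomal protein genes and 9.68% of the proteasome genes. The NRF1 core was in 15.6%, 4.69% and 6.45% of the same sets. The ratio of observed to expected CpG had a median of 0.821 in the members' start regions, 0.771 in those of listed genes and 0.415 in those of all genes of the table, and it was at least 0.6 in 89.6% of members, 72.2% of listed genes, 38.4% of all genes of the table and 87.5% of cytosolic ribosomal protein genes. The CpG ratio was thus higher from all genes to listed genes to members, as the motif shares were, and its part in those shares was not tested. Members with at least 1 motif had a median level per length of 4.66 (52 genes) and those with none 4.27 (44 genes), but the medians of these groups were 5.28 and 5.27 in mean log2 CPM and 5.87 and 5.73 per coding kb. The ranges of these groups, -0.72 to 7.56 and 1.01 to 6.29, overlapped over most of their width.

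**Figure D5:**
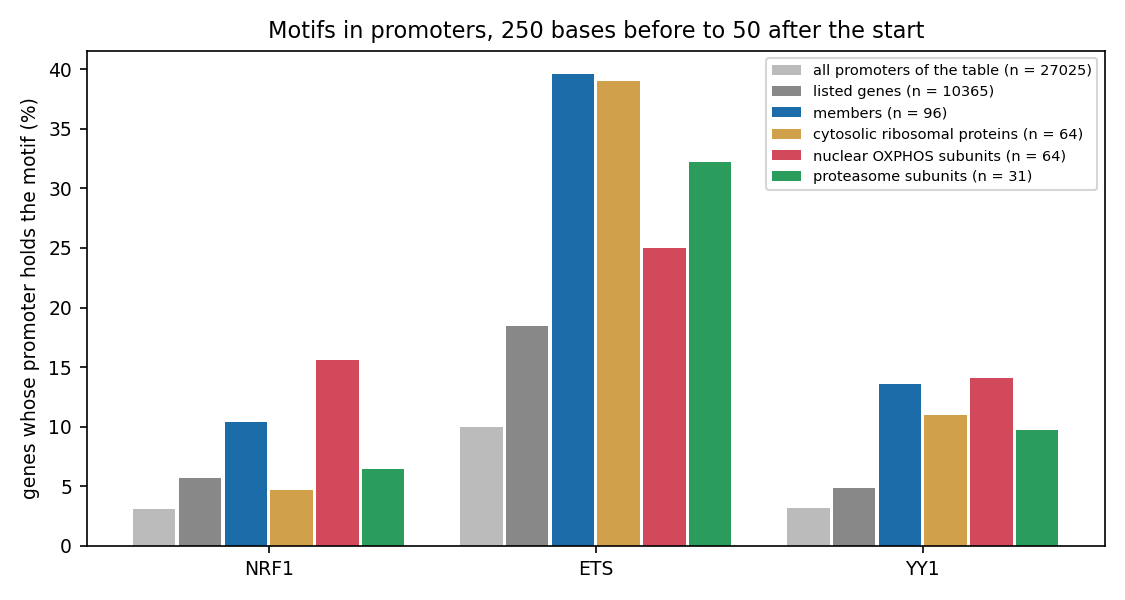
Percent of genes (vertical axis, from 0) whose start region, 250 bases before to 50 after the start, holds the NRF1, ETS or YY1 core on either strand, for 6 gene sets given with their numbers of genes. The 96 members hold the ETS core in 39.6% of cases, beside 18.5% of listed genes and 9.93% of all genes of the promoter table.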

How the data were processed

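Samples were grouped by the genotype in the labels. By the authors' methods, kallisto pseudoaligned the read pairs, gene-level CPM came from edgeR, genes needed over 1 CPM in 3 or more samples, values were put on a log scale with TMM normalization, and limma compared the genotypes. The submitters' processing notes name the builds GRCm39 and mm39; the kallisto index is not given in the sources used here. The deposited log2 values used are the authors' mean log2 CPM per gene. The other 5 columns hold the authors' own comparison (fold change, moderated t, p-value, adjusted p-value and log odds) and were not used. Depth per sample is unknown, and with means alone no test was made.

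Of 14016 rows, 1 has no symbol. GENCODE M21 (GRCm38) held 13458 symbols as written and 479 under a synonym, and 78 were not found. Level per length used the longest coding transcript. Shared 31-base words and divergent starts came from the same annotation, promoters from RefSeq. Python 3.11.15, pandas 2.3.3, numpy 2.4.6 and scipy 1.17.1 were used, and the scripts were tested on simulated data. Genes named are the 3 highest and 3 lowest of each class per length, core import genes, paralogous pairs and all named factors; those named for shared words, neighbours, motifs or stalk, tunnel and small TOM or TIM roles were chosen after their values were seen. The members and lists were chosen with earlier results of these data known. Alternatives were the coding length, no scaling, filters on low means and the stretch before the start alone. A length less 200 nt and leaving out members with over 10% of words shared were chosen after seeing the data.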

Additional observations from a re-analysis of the deposited data

How the results depend on the processing

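No paired analysis was possible because the values are means over all 6 samples; for the same reason the planned limma fit, the fits leaving out each replicate and other pseudocounts could not be run. Features of the proteins, also planned, were not computed, since no protein sequences were used here. Median levels per length changed most with the scale. Per kb of coding sequence they were 5.81 (large subunit), 5.93 (small), 5.92 (import) and 4.43 (factors), and without scaling 5.17, 5.17, 5.59 and 5.47, so the factors were last on both length scales and not without scaling. With the length less 200 nt the medians were 4.96, 4.82 and 4.67 for the large subunit, small subunit and import genes. Without members sharing over 10% of words these were 4.48, 4.08 and 4.28. With a mean of at least 3 log2 CPM the import median was 4.60. The SD over large-subunit genes was 1.29 per coding kb, 1.25 without scaling, 1.24 and 1.12 with means of at least 1 and 3 log2 CPM, and 1.16 without members sharing words. Over small-subunit genes it was 1.00 per coding kb, 0.61 without scaling and 1.35 with the shorter length. Over import genes it was 1.31 per coding kb, 1.23 without scaling, 1.39 with means of at least 3 log2 CPM, 1.66 with the shorter length and 1.44 without members sharing words. Over factors it was 0.91 without scaling and 0.66 without members sharing words. Differences between paralogues turned for Tomm40 and Tomm40l (-0.38 per coding kb, -0.15 without scaling), Timm10 and Timm10b (-0.10 without scaling), Mrps18b and Mrps18c (0.39 without scaling, beside -0.44 per coding kb) and Mtif2 and Mtif3 (-0.43 per coding kb). Of the other paralogue values, 15 moved by over 0.1 log2 and 8 did not. With the bases before the start alone, ETS was in 28.1% and YY1 in 4.17% of members. The order of the 109 genes per kb of transcript had a Spearman correlation across genes of 0.678 with that per coding kb. With the order by mean log2 CPM the correlation was 0.56. Depth limits could not be set.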
